A study of Mus musculus with 17 samples.

Results

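*Gata4*, *Gata6*, *Sox17*, *Sox7* and *Hnf4a* encode the transcription factors that mark the primitive endoderm, and their RNA was followed here in mouse embryonic stem cells treated with retinoic acid. Their rows were found by gene name, as 5 of the 54532 genes listed. Each name matched 1 row, and all 5 were among the 21871 genes tested, that is, genes at 1 TPM or more (a gene's reads divided by its length and scaled to the same total in every library) in at least 2 libraries. All 5 rose in wild-type cells over 3 days of retinoic acid. Compared with these cells, a *Usb1* knockout line had less of all but *Sox17* at day 1 and less of all 5 at day 3. With 1 TPM added to each level, the difference was at least 2-fold for *Sox7* and *Gata6* at day 1. At day 3 it was so for *Gata4*, *Sox17* and *Hnf4a*. Before retinoic acid, at day 0, its libraries were already below the wild-type ones in *Gata6*, on few reads. They were below in *Hnf4a* as well, but that difference did not pass the test (adjusted p = 0.131 by limma).

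The primitive endoderm is the layer of the blastocyst that lies between the epiblast and the cavity and gives rise to the visceral and parietal endoderm of the yolk sacs. In the inner cell mass, FGF4 from NANOG-expressing cells acts through FGF receptors on neighboring cells that come to express GATA6, which is followed in order by SOX17, GATA4 and SOX7. GATA factors bind a short motif built around the letters GATA, SOX17 and SOX7 belong to the SOXF group with an HMG box, and HNF4A is a nuclear receptor that acts in the visceral endoderm, liver and gut. Forced expression of *Gata4* or *Gata6* turns embryonic stem cells into extraembryonic endoderm, and retinoic acid is a long-used inducer of endoderm genes in embryonal carcinoma and stem cells.

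The 17 libraries came from R1 mouse embryonic stem cells, either wild-type (WT) or *Usb1* knockout (KO), at day 0, day 1 and day 3 of retinoic acid differentiation. WT day 0 had 2 libraries and each of the other 5 groups had 3. USB1 is a 3′ exonuclease that trims U6 snRNA. The KO libraries came from 1 CRISPR/Cas9 line with a frameshift in *Usb1*, so that an effect of the genotype and a feature of that clone cannot be told apart. *Usb1* RNA spanned 37.1 to 40.0 TPM in WT day 0 and 15.2 to 17.9 in KO day 0, 48.6 to 56.9 and 18.5 to 21.4 at day 1, and 32.0 to 35.8 and 14.7 to 20.4 at day 3, with no overlap between genotypes on any day.

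The recovered reads on genes were 15404379 to 17300186 per library. WT day 0 replicate 1 stood apart, with 239 genes at exactly 1 read. The other WT day 0 library had 1352 such genes, KO day 3 replicate 1 had 1224, and the remaining 14 libraries had 2150 to 2467. Where a call reported here was lost without WT day 0 replicate 1 or KO day 3 replicate 1, this is given beside it. Not every list gene newly called without them is named. The labelled cell type was borne out at day 0: the summed level of 8 embryonic stem cell markers, among them *Pou5f1*, *Sox2* and *Nanog*, was 5834 to 5914 TPM in WT day 0 and 5841 to 6367 in KO day 0. It was 364 to 409 TPM in WT day 3 and 585 to 671 in KO day 3.

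In the GRCm38 genome the GENCODE annotation placed *Gata4* at chr14:63198922-63271692 on the minus strand and *Sox7* at chr14:63943673-63950732 on the plus strand. *Sox17* lay at chr1:4490931-4497354 on the minus strand and *Hnf4a* at chr2:163506808-163572910 on the plus strand. The gene levels sum over all annotated exons of a gene. For *Hnf4a*, which is transcribed from an upstream and a downstream promoter whose starts were 40.298 kb apart in RefSeq, the levels therefore do not say which promoter was used. Both promoters are shown because the other members include GATA and SOX factors, whose binding letters were searched there. The sequences were taken from RefSeq (GRCm38.p6) by symbol, which matched 1 of the 5 genes in the promoter sequences used here. The windows of 250 bases before each start are printed without annotated *Hnf4a* exons, except that the first ends with the last base of a match:

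*Hnf4a* upstream promoter, chr2:163506607-163506810, plus strand: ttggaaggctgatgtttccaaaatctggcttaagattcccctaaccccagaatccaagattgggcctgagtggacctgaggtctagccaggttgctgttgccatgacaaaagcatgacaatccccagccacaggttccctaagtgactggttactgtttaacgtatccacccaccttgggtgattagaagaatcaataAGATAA
*Hnf4a* downstream promoter, chr2:163546943-163547154, plus strand: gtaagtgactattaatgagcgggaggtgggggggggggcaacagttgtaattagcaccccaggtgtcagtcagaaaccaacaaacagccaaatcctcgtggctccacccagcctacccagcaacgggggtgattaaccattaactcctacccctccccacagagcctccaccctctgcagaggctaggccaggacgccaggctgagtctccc

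Capitals mark a match to the GATA consensus, searched on both strands as AGATAA and its 3 variants that start with T, end with G, or both. This search was added after the windows were seen. The match began 52 bases before the RefSeq start, and 26.5% of 32851 promoter windows of the same length held at least 1 such match. The letters GATAAG, which can overlap the previous motif, AACAAT for SOX factors, AGGTCA for nuclear receptors and TATAAA for a TATA box were found in neither window on either strand. They were present in 6.55%, 9.42%, 14.0% and 12.4% of the windows. The promoters of *Gata4*, *Gata6*, *Sox17* and *Sox7* were not analysed here.

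The summed level of the 5 genes was 9.63 and 22.2 TPM in the WT day 0 libraries, 66.4 to 68.0 at day 1 and 271 to 296 at day 3. In the KO line it was 8.89 to 9.45, 15.5 to 18.7 and 119 to 136 TPM. The genotypes thus did not overlap at day 1 or day 3, and the sum in KO day 1 fell between the 2 WT day 0 libraries. The RNA came from whole cultures, in which fewer cells of a type and less RNA per cell cannot be told apart. The plot of each library shows a member per panel.

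**Figure D1:**
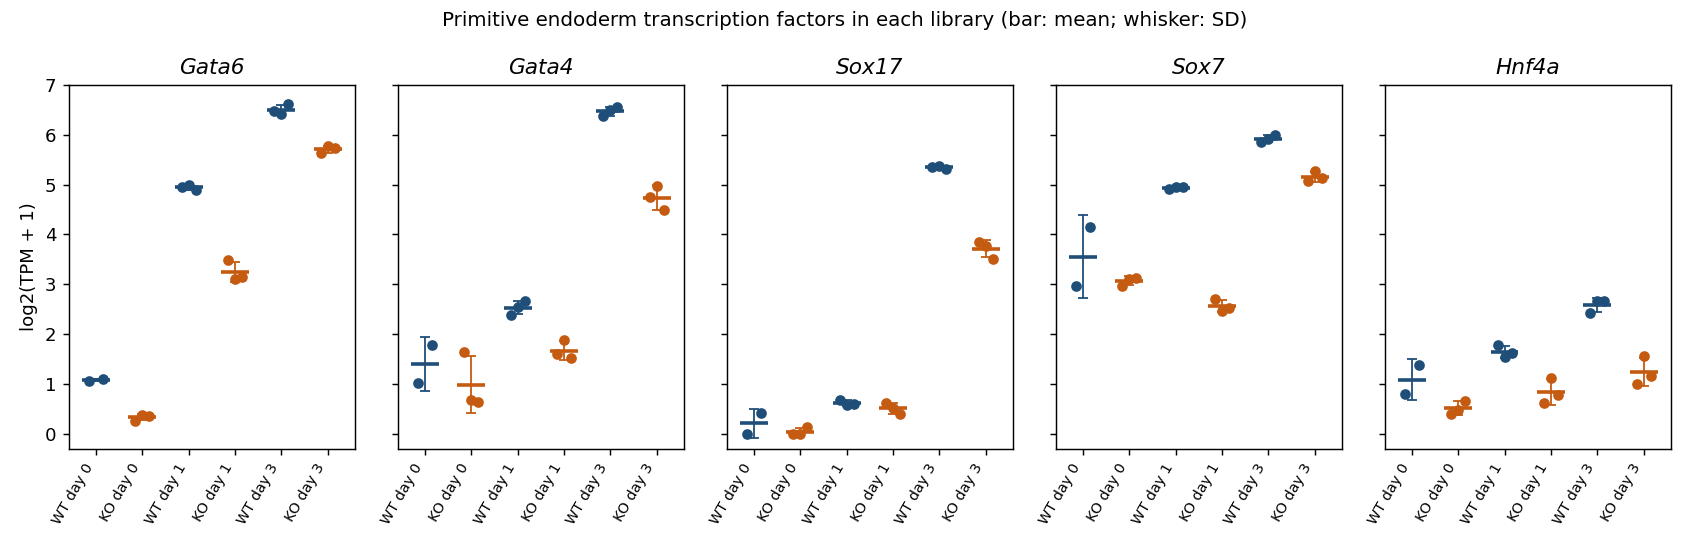
Level of each of the 5 genes as log2(TPM + 1) in each of the 17 libraries, in 6 groups by genotype (WT blue, KO orange) and day of retinoic acid. Points are libraries, bars are group means and whiskers are SD. *Gata6* stands in 6 separate levels, *Sox17* is near 0 until day 3, *Sox7* is lowest in KO day 1, and *Hnf4a* stays lowest of the 5 at day 3.

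Changes were tested with limma on the log2(TPM + 1) scale, which understates the change of genes near 0, and a gene was called when its p adjusted over all genes tested was below 0.05 and its change was at least 2-fold. From day 0 to day 1, 3 of the 5 genes were called higher in WT cells, beside 9.99% of all genes, and 1 of 5 in KO cells, beside 4.07%. From day 0 to day 3 all 5 were called higher in WT cells, beside 16.1% of all genes, and 4 of 5 in KO cells, beside 13.8%. From day 1 to day 3 the counts were 3 of 5 in WT cells, beside 7.7%, and 4 of 5 in KO cells, beside 9.6%. Without WT day 0 replicate 1, 1 of the 5 genes was called between day 0 and day 1 in WT cells, whether or not KO day 3 replicate 1 was left out too. The rises from day 0 to day 3 in WT cells were 5.41 for *Gata6*, 4.69 for *Gata4*, 4.93 for *Sox17*, 1.78 for *Sox7* and 1.21 for *Hnf4a* without WT day 0 replicate 1, and all 5 were still called.

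Between genotypes, none of the 5 genes was called at day 0, beside 3.05% of all genes, by limma on log2(TPM + 1). By adjusted p below 0.05 alone, 1 of the 5, *Gata6*, was lower in KO cells at day 0, beside 11.9% of all genes in either direction. Voom on the recovered reads called 1, *Gata6*, beside 5.86% of the genes it tested. At day 1, 2 of the 5 were called lower in KO cells, beside 1.76% of all genes. At day 3, 3 of the 5 were called lower, beside 0.773%. The difference of the responses between genotypes was called for 1 of the 5 genes from day 0 to day 1, beside 0.86% of all genes, for 1 from day 0 to day 3, beside 2.42%, and for 2 from day 1 to day 3, beside 2.25%. In KO against WT cells all 5 were lower with an adjusted p below 0.05 at day 3, beside 7.52% of all genes in either direction. Lower genes by that rule numbered 778 of 21871. The median difference of the 5 was -1.34 on the log2(TPM + 1) scale against 0 over all genes tested.

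**Figure D2:**
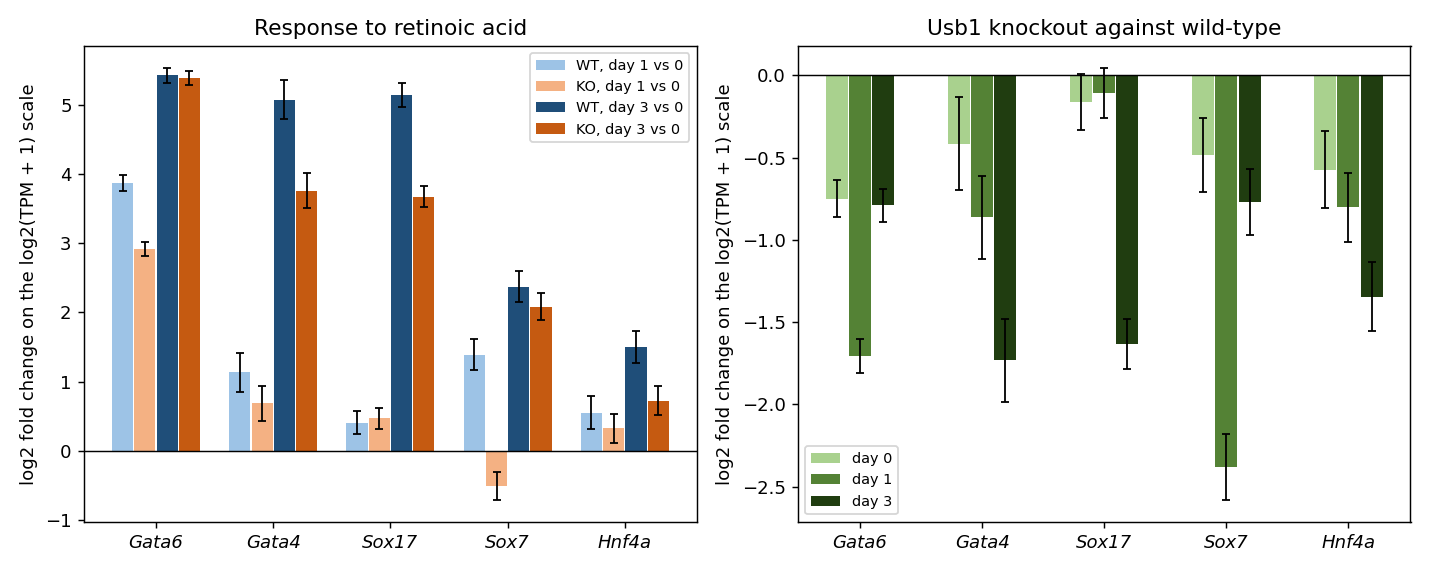
Log2 fold changes of the 5 genes on the log2(TPM + 1) scale, with SE from limma as whiskers. Left, day 1 and day 3 of retinoic acid against day 0 within WT and KO cells. Right, KO against WT cells at each day, where *Sox7* and *Gata6* are lowest at day 1 and *Gata4*, *Sox17* and *Hnf4a* at day 3.

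*Gata6* (chr18:11052064-11085635, plus strand), the earliest of these factors in the embryo, rose the most by day 1. It stood at 1.09 and 1.13 TPM in the WT day 0 libraries, at 30.1, 30.9 and 28.5 at day 1, and at 87.5, 84.6 and 96.5 at day 3. In the KO libraries it stood at 0.194, 0.300 and 0.272 TPM, at 10.1, 7.58 and 7.83, and at 48.4, 53.5 and 52.0. The 6 groups did not overlap, and KO was below WT on each day.

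The rise of *Gata6* by day 1 was 3.87 ± 0.11 on the log2(TPM + 1) scale in WT cells (SE, n = 3 and 2, adjusted p = 1.02e-11 by limma) and 2.91 ± 0.10 in KO cells (adjusted p = 7.33e-11 by limma). By day 3 it was 5.42 in WT and 5.38 in KO cells. At day 1 *Gata6* was 3.51-fold lower in KO cells in mean TPM, a difference of -1.71 ± 0.10 on the log2 scale (adjusted p = 1.32e-07 by limma). At day 3 it was 1.75-fold lower (-0.79 ± 0.10, adjusted p = 0.000220 by limma), which is under the 2-fold minimum.

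At day 0 *Gata6* was already 4.35-fold lower in mean TPM in KO cells, with 6 to 9 reads per KO library against 33 and 34 in the WT libraries. The log2(TPM + 1) difference was -0.75 (adjusted p = 0.000994 by limma), and with voom on reads it was -2.02. The order of the responses of the genotypes differed between scales. The ratio of mean TPM between day 1 and day 0 was 26.9 in WT and 33.4 in KO cells, and between day 3 and day 0 it was 80.8 and 201. The difference of the 2 responses at day 1 was -0.96 on the log2(TPM + 1) scale (adjusted p = 0.00616 by limma) and 0.30 with voom (adjusted p = 0.776).

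*Gata4*, which follows *Gata6* in the embryo and shares its DNA motif, was low until day 3. It stood at 1.02 and 2.43 TPM in WT day 0, at 4.22, 4.84 and 5.30 at day 1, and at 81.7, 88.8 and 92.7 at day 3. In the KO libraries it stood at 2.11, 0.590 and 0.556 TPM, at 2.01, 2.70 and 1.87, and at 25.9, 30.5 and 21.4. The genotypes overlapped at day 0 and not at day 1 or day 3, and KO day 1 overlapped WT day 0.

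The rise of *Gata4* from day 0 to day 3 was 5.07 ± 0.28 on the log2(TPM + 1) scale in WT cells (adjusted p = 1.37e-09 by limma) and 3.76 ± 0.25 in KO cells (adjusted p = 9.54e-09 by limma). Its call at day 1 in WT cells (1.13, adjusted p = 0.00552) was lost without WT day 0 replicate 1 (0.75, adjusted p = 0.0977). At day 3 *Gata4* was 3.38-fold lower in KO than in WT cells (-1.73 ± 0.25, adjusted p = 0.000635 by limma), and at day 1 the difference was -0.86 (adjusted p = 0.0302). The difference of the responses to day 3 was -1.32 ± 0.38, with an adjusted p of 0.0553 by limma, and its sign held in every alternative. It was -0.93 without WT day 0 replicate 1 (adjusted p = 0.223) and passed the test at -1.70 without WT day 0 replicate 2 (adjusted p = 0.0109), at -1.49 without KO day 0 replicate 3 (0.0468), with quantile normalization (-1.20, 0.0334) and with a filter at 5 TPM (0.0427).

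*Sox17*, a SOXF factor of primitive, visceral and definitive endoderm, was close to absent before day 3. Its reads numbered 0 and 7 in WT day 0 and 0, 0 and 2 in KO day 0, where 3 reads would have been worth 0.132 to 0.142 TPM. At day 1 it had 13, 11 and 11 reads in WT libraries (0.489 to 0.599 TPM) and 12, 10 and 8 in KO libraries (0.322 to 0.533 TPM). The genotypes overlapped at both of these days.

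At day 3 *Sox17* stood at 40.0, 40.3 and 38.6 TPM in WT libraries and at 13.5, 12.6 and 10.4 in KO libraries, with 795 to 910 reads against 234 to 332. It was thus 3.25-fold lower in KO cells (-1.63 ± 0.15, adjusted p = 1.42e-05 by limma), without overlap. From day 0 to day 3 the ratio of mean TPM was 239 in WT and 402 in KO cells, with 0 to 7 reads per day 0 library. The order was the other way between day 1 and day 3, where *Sox17* rose by a ratio of 74.5 in WT and 28.6 in KO cells. The difference of these responses was -1.53 ± 0.22 on the log2(TPM + 1) scale (adjusted p = 0.000664 by limma), and that from day 0 was -1.47 (adjusted p = 0.00210). Neither passed the test with a pseudocount of 0.1 (adjusted p = 0.238 and 0.436) or with voom on reads (adjusted p = 0.218 and 0.793), both of which add a smaller offset than 1 TPM to the few reads before day 3.

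*Sox7*, the other SOXF member, which also marks parietal endoderm, had a level at day 0 and the largest difference between genotypes among the 5 genes, at day 1. It stood at 6.79 and 16.7 TPM in WT day 0, at 29.2, 29.9 and 30.0 at day 1, and at 57.3, 59.0 and 62.7 at day 3. In the KO libraries it stood at 6.83, 7.61 and 7.76 TPM, at 5.46, 4.49 and 4.77, and at 32.5, 37.4 and 34.0. KO day 1 was the lowest of the 6 groups, below KO day 0 without overlap, while every WT day 1 library was above both WT day 0 libraries.

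At day 1 *Sox7* was 6.05-fold lower in KO than in WT cells (-2.38 ± 0.20, adjusted p = 2.99e-06 by limma). Its change from day 0 to day 1 was 1.39 ± 0.22 in WT cells (adjusted p = 0.000213 by limma) and -0.51 ± 0.20 in KO cells (adjusted p = 0.0747), and the difference of the 2 was -1.90 ± 0.30 (adjusted p = 0.00616). From day 1 to day 3 the order turned, with 0.98 in WT and 2.59 in KO cells and a difference of 1.61 ± 0.28 (adjusted p = 0.00328 by limma). At day 3 *Sox7* was 1.72-fold lower in KO cells (-0.77, adjusted p = 0.0302 by limma), under the 2-fold minimum. The adjusted p was 0.0505 to 0.0923 when any 1 of the 6 day 3 libraries was left out (-0.72 without KO day 3 replicate 1). With voom on reads the difference was -0.78 (adjusted p = 0.000182), also under that minimum.

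The 2 WT day 0 libraries differed 2.46-fold in *Sox7*, and the values that start from WT day 0 moved with them. Without replicate 1 the rise of *Sox7* to day 1 in WT cells was 0.79 (adjusted p = 0.000144 by limma), under the 2-fold minimum, KO was lower than WT at day 0 by -1.08 (adjusted p = 0.000158), and the difference of the responses to day 1 was -1.30 (adjusted p = 0.000804). Without replicate 2 the difference at day 0 was 0.11 (adjusted p = 0.536), and that of the responses to day 1 was -2.49. The size of the difference between KO and WT at day 1 does not involve these libraries. Its SE and p do, as do those of every comparison of *Sox7*, since the spread of a gene was estimated over all 17 libraries.

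*Hnf4a*, which acts later and keeps visceral endoderm genes on, was the lowest of the 5 genes at day 3 in both genotypes. It stood at 0.737 and 1.59 TPM in WT day 0, at 2.41, 1.89 and 2.05 at day 1, and at 4.39, 5.30 and 5.33 at day 3. In the KO libraries it stood at 0.314, 0.390 and 0.584 TPM, at 0.527, 1.18 and 0.716, and at 1.00, 1.93 and 1.23. The genotypes did not overlap on any day, and the KO day 3 libraries overlapped those of WT day 0 and WT day 1. At day 0 the difference between genotypes was -0.57 and did not pass the test (adjusted p = 0.131 by limma).

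*Hnf4a* rose by 1.50 ± 0.23 from day 0 to day 3 in WT cells (adjusted p = 7.51e-05 by limma) and by 0.73 ± 0.21 in KO cells (adjusted p = 0.00928), the latter under the 2-fold minimum on the log2(TPM + 1) scale. With voom the KO rise was 1.54 (adjusted p = 0.00690). At day 3 *Hnf4a* was 3.60-fold lower in KO cells (-1.34 ± 0.21, adjusted p = 0.00118 by limma, and -1.23 without KO day 3 replicate 1), and at day 1 it was 2.63-fold lower in mean TPM (-0.80, adjusted p = 0.0179). The KO values rest on 25 to 41 reads per library at day 3, against 98 to 121 in WT.

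The genes also differed in how much of their rise had taken place by day 1. On the log2(TPM + 1) scale the share of the day 0 to day 3 change reached at day 1 in WT cells was 71.4% for *Gata6*, 58.5% for *Sox7*, 36.9% for *Hnf4a*, 22.3% for *Gata4* and 7.95% for *Sox17*. In KO cells it was 54.1% for *Gata6*, 44.8% for *Hnf4a*, 18.2% for *Gata4* and 12.7% for *Sox17*, and -24.5% for *Sox7*, which was lower at day 1 than at day 0. Shares of the change in mean TPM were lower for every gene in WT cells and came in another order, with 37.5% for *Sox7*, 32.5% for *Gata6*, 24.9% for *Hnf4a*, 3.56% for *Gata4* and 0.928% for *Sox17*. In KO cells they were 39.2% for *Hnf4a*, 16.2% for *Gata6*, 4.46% for *Gata4*, 3.26% for *Sox17* and -9.16% for *Sox7*. *Gata6* and *Sox7* came before *Hnf4a*, *Gata4* and *Sox17* in WT cells on both scales. These shares are of group means and have no test. At day 3 the KO level was 29.6% of the WT level for *Gata4*, 30.7% for *Sox17*, 27.8% for *Hnf4a*, 57.3% for *Gata6* and 58.1% for *Sox7*.

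Other endoderm transcription factors were read from a list of 7, among which *Foxa1*, *Foxa2* and *Gata5* were called higher from day 0 to day 3 in both genotypes. The median change in WT cells was 2.21 on the log2(TPM + 1) scale against 0.10 over all genes tested. *Foxa2*, a forkhead factor of visceral and definitive endoderm, stood at a mean of 178 TPM in WT and 114 in KO cells at day 3. *Foxa1* stood at 52.6 and 22.6 TPM (-1.18, adjusted p = 0.000714 by limma) and was the 1 gene of the list called between genotypes at day 3. At day 1, *Foxa1* and *Foxa2* were called lower in KO cells, and the list median was -0.34 against -0.13 over all genes.

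Of 6 paralogs listed, 5 were tested, and *Gata3* and *Gata5* were called higher from day 0 to day 3 in both genotypes. In KO cells *Gata2* was called higher as well, and *Sox18* lower, the latter not without KO day 3 replicate 1. *Gata3*, a trophectoderm and surface ectoderm factor, reached a mean of 58.4 TPM in WT and 71.6 in KO cells at day 3 (0.29, adjusted p = 0.286 by limma). *Gata2*, a blood and trophoblast factor, stood at 14.2 TPM in WT and 42.9 in KO cells at day 3 and was called higher in KO cells (1.53 ± 0.15, adjusted p = 1.99e-05 by limma). Thus 1 of the 5 tested paralogs was called between genotypes at day 3, in the direction opposite to *Gata4*.

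Among the ligands and receptors of this lineage and *Nanog*, a list of 6, *Fgf4*, *Pdgfa* and *Nanog* were called lower and *Fgfr2* and *Pdgfra* higher from day 0 to day 3 in WT cells. *Pdgfra*, a surface marker of primitive endoderm, stood at a mean of 18.2 TPM in WT and 18.6 in KO cells at day 3 (0.03, adjusted p = 0.965 by limma). *Fgfr2* stood at 45.8 and 40.7 TPM at day 3, and was called lower in KO cells at day 1, at 4.70 against 12.8 TPM. *Fgf4* and *Nanog* were the 2 genes of the list called between genotypes at day 3, at 10.5 against 2.90 TPM and 87.2 against 22.6 TPM, both higher in KO cells.

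Genes of the basement membrane that GATA4 and GATA6 are known to activate, a list of 8, had 7 called higher from day 0 to day 3 in each genotype, with a median of 2.75 in WT cells. *Lama1*, a laminin chain of Reichert's membrane, stood at a mean of 1121 TPM in WT and 372 in KO cells at day 3 (-1.59, adjusted p = 1.14e-05 by limma). *Col4a1*, *Col4a2* and *Lamb1* were the other members of the list called lower in KO cells at day 3. The list median of that difference was -0.91, against 0 over all genes tested. *Col4a1* and *Col4a2* were called lower in KO cells at day 0 too (-1.17 and -1.25), and *Lama1*, *Col4a1* and *Col4a2* at day 1.

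Of 11 visceral endoderm genes, 9 were called higher from day 0 to day 3 in WT cells and 10 in KO cells. Their summed level was 501 to 563 TPM in WT day 3 and 232 to 276 in KO day 3. *Dab2*, *Cubn*, *Amn*, *Ttr* and *Ihh* were called lower in KO cells at day 3. *Lrp2* was called lower at day 1 but not at day 3, and its difference of responses from day 1 to day 3 was called higher in KO cells. *Ttr*, the thyroid hormone carrier transthyretin, stood at a mean of 76.3 against 29.2 TPM (-1.36, adjusted p = 5.04e-05 by limma), and *Cubn*, an endocytic receptor, at 87.1 against 30.1. *Lrp2*, *Cubn* and *Amn* were called lower in KO cells at day 0 already, *Amn* not without WT day 0 replicate 1. All 4 parietal endoderm genes were called higher in WT cells, and *Pth1r*, the receptor for parathyroid hormone and its related peptide, was the 1 called lower in KO cells at day 3, at 19.2 against 55.9 TPM.

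**Figure D3:**
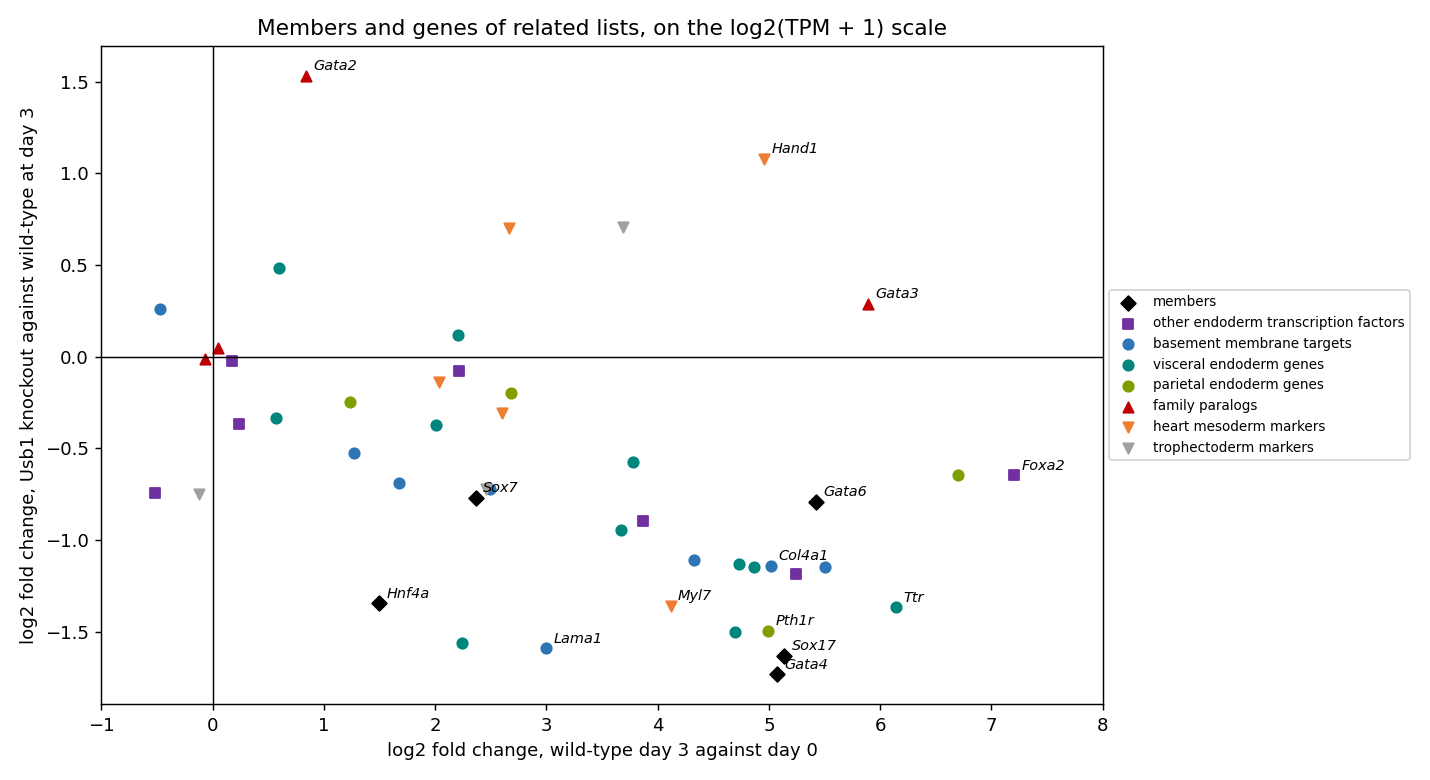
Each point is a gene. The horizontal axis gives its log2 fold change from day 0 to day 3 in WT cells and the vertical axis KO against WT cells at day 3, both on the log2(TPM + 1) scale. The 5 members (black diamonds) and most endoderm and basement membrane genes lie below 0 on the vertical axis, and *Gata2* (1.53) and *Hand1* (1.08) above it.

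The 5 genes are also used outside primitive endoderm, so markers of the other tissues were read. Of 7 definitive endoderm and streak markers, *Cer1* was at 0 in every library of 5 groups, *T* was called lower in WT cells by day 3 but not without WT day 0 replicate 1, and the summed level was 5.77 to 8.78 TPM in WT day 3 and 10.9 to 12.4 in KO day 3. Of these 7 markers 5 were tested, and none was called between genotypes at day 3. *Cxcr4* was called higher by day 3 in KO cells, and its difference of responses from day 1 to day 3 was called higher there. From day 1 to day 3 in KO cells *Eomes* and *Mixl1* were called lower, *Mixl1* not without KO day 3 replicate 1. Of 9 heart mesoderm markers, 5 were tested and called higher by day 3 in both genotypes. *Hand1*, also a trophoblast and extraembryonic mesoderm factor, was higher in KO cells at day 3 (64.8 against 30.4 TPM), and *Myl7*, an atrial myosin light chain, lower (66.3 against 171 TPM). The summed heart list was 219 to 223 TPM in WT day 3 and 145 to 158 in KO day 3.

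Of 8 endothelial markers, where SOX7 and SOX17 also act, 3 were called lower in WT cells by day 3 (2 without WT day 0 replicate 1, where *Etv2* was lost), and *Pecam1* was the 1 called between genotypes at day 3 (4.83 TPM in KO against 1.61 in WT). The summed level of that list was 11.5 to 13.2 TPM in WT day 3 and 18.9 to 20.7 in KO day 3. In the trophectoderm list 3 of 4 tested genes were called higher in WT cells by day 3, and none was called between genotypes at day 3. Its summed level was 112 to 123 TPM in WT day 3 and 117 to 122 in KO day 3, which overlap. Within it, *Plac1* stood at 12.0 TPM in WT and 20.1 in KO cells at day 3. The fibroblast list had 4 of 4 tested genes called higher in WT cells by day 3, with sums of 43.2 to 53.2 TPM in WT day 3 and 68.7 to 77.4 in KO day 3, where *Col3a1* was called higher in KO cells.

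All 8 stem cell markers were called lower by day 3 in both genotypes, and 2 of them, *Nanog* and *Esrrb*, were called higher in KO than in WT cells at day 3, *Esrrb* at 14.3 against 3.50 TPM. Of 6 retinoic acid response genes, all were called higher by day 3 in both genotypes. Between genotypes, *Cyp26a1*, which degrades retinoic acid, and *Stra8* were called lower in KO cells at day 0, at 0.118 against 2.72 TPM and 10.3 against 25.2 TPM. *Hoxb1*, *Stra8* and *Crabp2* were called lower at day 1, and *Cyp26a1* at day 3 (88.9 against 402 TPM). The difference of the responses to day 1 was called higher in KO cells for *Cyp26a1* (1.69) and lower for *Hoxb1* (-2.04) and *Crabp2* (-1.94), and for *Stra8* it was 0.09 (adjusted p = 0.695 by limma). The part that these lists have in the lower level of the 5 genes was not tested.

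*Gata4* and *Sox7* are neighbors on chromosome 14, with starts 671.981 kb apart and 13 annotated genes between them, of which 7 were tested. *Tdh*, the threonine dehydrogenase of mouse stem cells, lay between them and moved the other way. It stood at a mean of 434 TPM in WT day 0 and 20.9 in WT day 3, a change of -4.33, and in KO cells the change was -5.69. *Xkr6* was the 1 other coding gene between them called by day 3 in WT cells, with a rise of 1.53. No gene within this interval other than *Tdh* was called between genotypes at day 3.

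**Figure D4:**
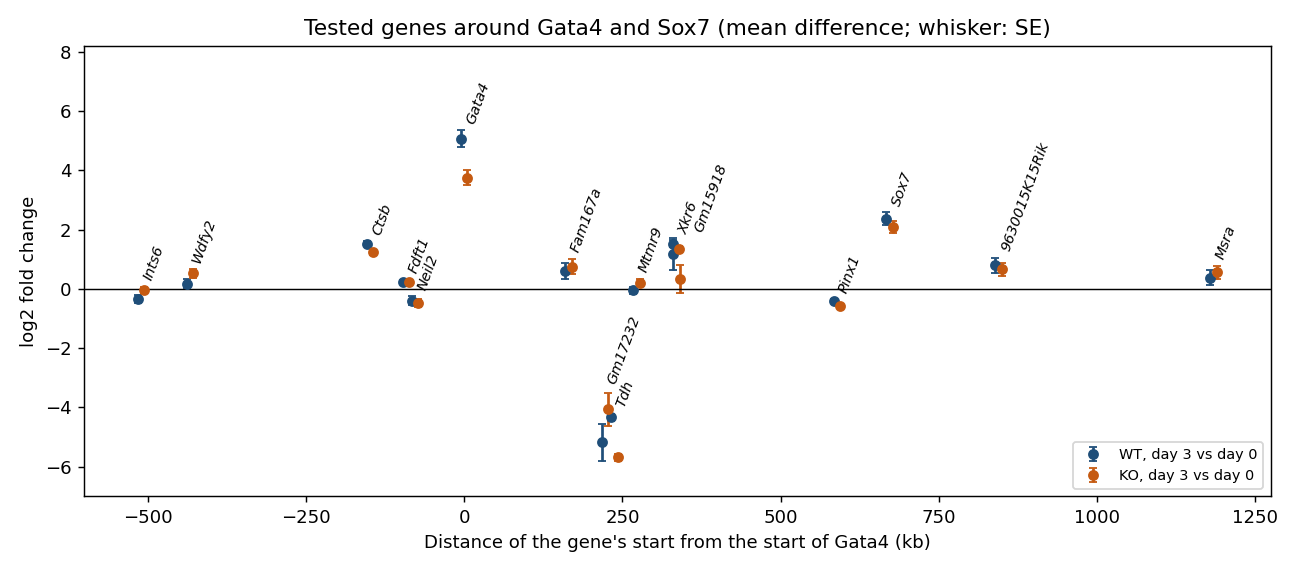
Log2 fold change from day 0 to day 3 in WT (blue) and KO (orange) cells for tested genes on chromosome 14, by distance of their start from the start of *Gata4* in kb. Points are mean differences on the log2(TPM + 1) scale and whiskers are SE. *Gata4* and *Sox7* rise, and *Tdh* and *Gm17232* between them fall.

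Genes that overlap a member can share its reads, since whether the counting used strand is not given in the sources used here. *1010001N08Rik* lies on the opposite strand of *Gata6* and shares 93 exon bases with it, 1.43% of the *Gata6* exons. It moved with *Gata6*, at means of 0.112, 1.74 and 7.82 TPM in WT and 0.0238, 0.429 and 3.35 TPM in KO cells at day 0, day 1 and day 3, and was called lower in KO cells at day 3 (-1.03, adjusted p = 0.00909 by limma). *Gm37587* overlaps 804 exon bases of *Sox17*, 16.8% of its exons, also on the opposite strand, and was at 0 in every library of 5 groups. *Hnf4aos*, antisense to *Hnf4a*, shares no exon base with it, and stood at 2.06 TPM in WT day 1 and at 0.0811 in WT day 3.

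Over the 17 libraries the members' patterns were most alike for *Gata4* and *Sox17* (Pearson r = 0.980 of log2(TPM + 1)) and least alike for *Hnf4a* and *Sox17* (r = 0.762). Among 14463 coding genes compared, the pattern most like that of *Gata6* was *Sema4c* (r = 0.997), of *Gata4* *Trim3* (r = 0.989), of *Sox17* *Cxcl10* (r = 0.998), of *Sox7* *Wdr86* (r = 0.967) and of *Hnf4a* *Slc45a3* (r = 0.951). *Ttr* was also among the 3 genes most like *Sox17*. These libraries are groups in a time course, so such values describe a shared order of groups and have no test.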

How the data were processed

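RNA-seq of 17 libraries was analysed from the gene-level TPM values deposited by the authors, who computed them from gene length and read counts (NEBNext Ultra libraries, NovaSeq). The submitters' processing notes name HISAT2 2.1.0, StringTie 1.3.6 and GRCm38.p6, and the authors tested their own counts with DESeq2. Groups came from genotype and day in the labels. Nothing beyond the description of independent biological replicates says how cultures were kept apart.

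TPM values were multiplied by GENCODE exon length and divided by the value of 1 read in each library. The result was whole within 0.01 for 95.9% to 96.7% of genes above 0, and gave 15404379 to 17300186 reads per library. TPM is a share of a library, so a rise of abundant genes lowers the others.

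The main test was limma 3.58.1 (R 4.3.3, trend) on log2(TPM + 1) with 6 group means over all 17 libraries, for 21871 genes at 1 TPM or more in at least 2 libraries, with Benjamini-Hochberg adjustment over all of them. Calls needed both a 2-fold change and an adjusted p below 0.05. The 12 comparisons include the differences of responses between genotypes. The fit was tested on simulated data. A level of 0 was read against 3 reads per library, which covers counting error only. The 5 genes and the gene lists were chosen with earlier results of these data known. From each list the called genes and up to 4 genes with the largest changes from day 0 to day 3 in WT or between genotypes at day 3 were to be given with values. The levels of *Pdgfra* and of *Fgfr2* at day 1 and the calls of *Lrp2*, which bear on the 5 genes, were added after their values were seen. Genes within 500 kb of a member, overlapping genes and the 3 coding genes of highest Pearson r were taken by rule. Some genes that met these rules are not reported here by name. Promoter sequences are from RefSeq. Same-numbered replicates of different groups did not deviate together, so that no pairing was used.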

Additional observations from a re-analysis of the deposited data

Results flagged for a closer look

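The responses of the 2 genotypes to retinoic acid differed for *Sox7* and *Sox17* when the difference itself was tested with limma. For *Sox7* the change from day 0 to day 1 was lower in KO than in WT cells by -1.90 on the log2(TPM + 1) scale, and the change from day 1 to day 3 was higher by 1.61. The first value was -1.30 without WT day 0 replicate 1 and -2.49 without WT day 0 replicate 2, and it passed the test both times. For *Sox17* the change to day 3 was lower in KO cells by -1.47 from day 0 and by -1.53 from day 1, and neither value passed with a pseudocount of 0.1 or with voom on reads.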

How the results depend on the processing

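Over 60 values of single genes and their alternatives, 1549 kept direction and side of the threshold, 43 passed it newly, 12 no longer passed and 16 changed sign. For the number of the 5 genes called, adjusted p alone, without the 2-fold minimum, gave 5 instead of 3 for WT day 3 against day 1, 2 instead of 1 for KO day 1 against day 0, 5 instead of 4 for KO day 3 against day 0, 1, 4 and 5 instead of 0, 2 and 3 between genotypes at day 0, 1 and 3, and 2 instead of 1 and 3 instead of 2 for the differences of responses to day 1 and from day 1 to day 3. A pseudocount of 0.1 gave 4 for WT day 1 against day 0, 5 for WT day 3 against day 1, 3 and 5 for KO day 1 and day 3 against day 0, 1 and 3 between genotypes at day 0 and day 1 and 0 for the difference of responses from day 0 to day 3. Quantile normalization gave 2 for WT day 1 against day 0, as did equal medians, 5 for WT day 3 against day 1, 3 for the difference of responses from day 1 to day 3 and 2 for that from day 0 to day 3, and a filter at 5 TPM gave 2 for the latter. Voom gave 4 for WT day 1 against day 0 and for WT day 3 against day 1, 2 and 5 for KO day 1 and day 3 against day 0, 1 and 4 between genotypes at day 0 and 1, and 0 and 1 for the differences of responses to day 3 from day 0 and from day 1. The libraries of a comparison alone gave 1 for WT day 1 against day 0 (9.75%), with fewer libraries to estimate the spread.

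Leaving out 1 library at a time, the count ranged from 1 to 3 for WT day 1 against day 0, 3 to 5 for WT day 3 against day 1, 1 to 2 for KO day 1 against day 0, 0 to 1 between genotypes at day 0, 1 to 2 for the difference of responses to day 1, 1 to 3 for that from day 0 to day 3 and 2 to 3 for that from day 1 to day 3. The libraries behind these ranges were WT day 0 replicate 1 (WT day 1 against day 0, genotypes at day 0), WT day 3 replicate 1 (5), KO day 0 replicate 1 (2), KO day 1 replicate 1 (2), and for day 0 to day 3 WT day 0 replicate 2 (3) and KO day 0 replicate 3 (2). Without both WT day 0 replicate 1 and KO day 3 replicate 1, an alternative chosen after seeing the data, the count was 1 for WT day 1 against day 0 and 1 between genotypes at day 0.

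Signs changed under quantile normalization for *Sox17* in WT day 1 against day 0 (-0.052) and between genotypes at day 1 (0.068), for *Hnf4a* in the difference of responses to day 1 (0.19) and for *Gata6* in that to day 3 (0.097). For *Gata6* the latter was also 0.98 with a pseudocount of 0.1, 1.23 with voom, 0.015 without both libraries named above, and ran from -0.080 to 0.013 when 1 library at a time was left out, and its difference of responses to day 1 was 0.30 with voom. Likewise *Sox17* and *Sox7* between genotypes at day 0 ran from -0.37 to 0.042 and from -1.08 to 0.11. The difference of responses to day 1 ran from -0.15 to 0.27 for *Sox17* and from -0.52 to 0.061 for *Hnf4a*, and that to day 3 from -0.88 to 0.31 for *Sox7*. These ends came from either WT day 0 replicate. Without WT day 0 replicate 1 and KO day 3 replicate 1 together, the *Hnf4a* difference to day 1 was 0.061 and the *Sox7* difference to day 3 was 0.35. The cause was not tested.

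The replicate numbers did not pair the libraries: over 40 same-numbered pairs the correlation of deviations from the group mean ran from -0.130 to 0.124, with 1 above 0.1. With the replicate number as a block the count of members called was unchanged in all 12 comparisons (3 between genotypes at day 3). Over all genes, adjusted p alone called 2.02 to 7.81 times as many genes, and without WT day 0 replicate 2 the differences of responses to day 1 had 9.69 times as many calls. Voom called 1.92 times as many between genotypes at day 0, where the 2 groups alone gave 0.109 times as many. The median over all genes was -0.13 between genotypes at day 1, so the day 1 differences include that shift. WT day 0, with 2 libraries of which 1 stood apart, limits every value that starts from it, and *Sox17* before day 3 and *Hnf4a* in KO cells rest on few reads.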
